A study of Mus musculus with 50 samples.

Results

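LSK cells are sorted from marrow as cells that lack lineage markers and carry Sca-1 and Kit, a gate that holds the blood-forming stem cells and the multipotent progenitors. LSK cells of Flt3 mutant mice at 4 weeks were compared with LSK cells of WT mice at 4 weeks. The libraries were chosen by their titles, 3 of Flt3 mutant and 3 of WT mice, 6 of the 50 libraries of the series. The Flt3 mutant mice carried the Flt3 mutation alone, without the Npm1 or Dnmt3a mutations of other mice of the series, and the labels do not name the allele. The labels state that mutations were switched on with Cre, Dre or Flp recombinase, without saying which enzyme or which promoter was used in these mice, or whether the WT mice received one. Neither the ages of the mice nor the event from which the weeks were counted is given. Cells were sorted into Trizol and the RNA was read by sequencing. The sample codes differ between replicates, the labels do not say that each is a separate animal, and p-values measure the spread between these libraries. The Flt3 codes share 1 prefix and the WT codes another, so genotype and sample series cannot be told apart. The other 9 Flt3 LSK libraries, 3 each at 2, 6 and 8 weeks, entered the fit to estimate the spread and served for the comparison of times. The series holds no WT LSK of other weeks.

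Flt3 is a receptor tyrosine kinase of early progenitors that responds to the growth factor Flt3 ligand. In normal marrow it marks multipotent and lymphoid-primed progenitors and the precursors of dendritic cells, and it is low on long-term stem cells and on progenitors of red cells and platelets. Activating mutations of FLT3 are frequent in human acute myeloid leukaemia, and the mutant receptor is known to signal through STAT5 as well as through the RAS and MAPK pathway.

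Total counts were 1496905, 1068300 and 3030228 in Flt3 LSK replicates 1, 2 and 3, against 2849650, 808900 and 2603446 in WT LSK. Across the 15 LSK libraries in the fit they lay between 306571 and 3030228, with 10528 to 14435 genes detected. Levels are CPM, read counts scaled to a common library size, after normalisation of the libraries, given for replicates 1, 2 and 3 in that order, and are compared between libraries, not between genes. Changes are log2 fold changes of Flt3 minus WT LSK ± SE. A gene rose or fell where its p-value from edgeR's quasi-likelihood test, adjusted over all genes by the Benjamini-Hochberg method, was under 0.05. No replicate was a copy of another, with a chi-square per degree of freedom of at least 3.1 between replicates. The 3 libraries of 2 weeks and replicate 3 of 8 weeks stood apart from the other Flt3 LSK on principal components. They are not part of the genotype comparison itself.

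Of 9892 genes tested, 1003 differed between the genotypes (10.1%), of which 449 rose (4.54%) and 554 fell (5.6%) in Flt3 LSK. These shares of all genes are the measure for the counts of list members given below. The median log2 fold change of all genes tested was -0.01. Among the genes called, 132 rose and 197 fell by at least 4-fold, while 366 changed by less than 2-fold in either direction. In 976 of the 1003 the 3 Flt3 libraries did not overlap the 3 WT libraries. Over all genes tested the Flt3 libraries lay wholly above the WT libraries in 14.2% and wholly below them in 14.5%. Without the 2-week libraries 987 genes differed, and without Flt3 8-week replicate 3 the number was 1173. The genes that fell the furthest include regulators and products of red cells and platelets, and those that rose include targets of cytokine signalling and genes of dendritic cells. In bulk RNA, fewer cells of a type and less RNA per cell cannot be told apart, and this holds for each result here.

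**Figure D1:**
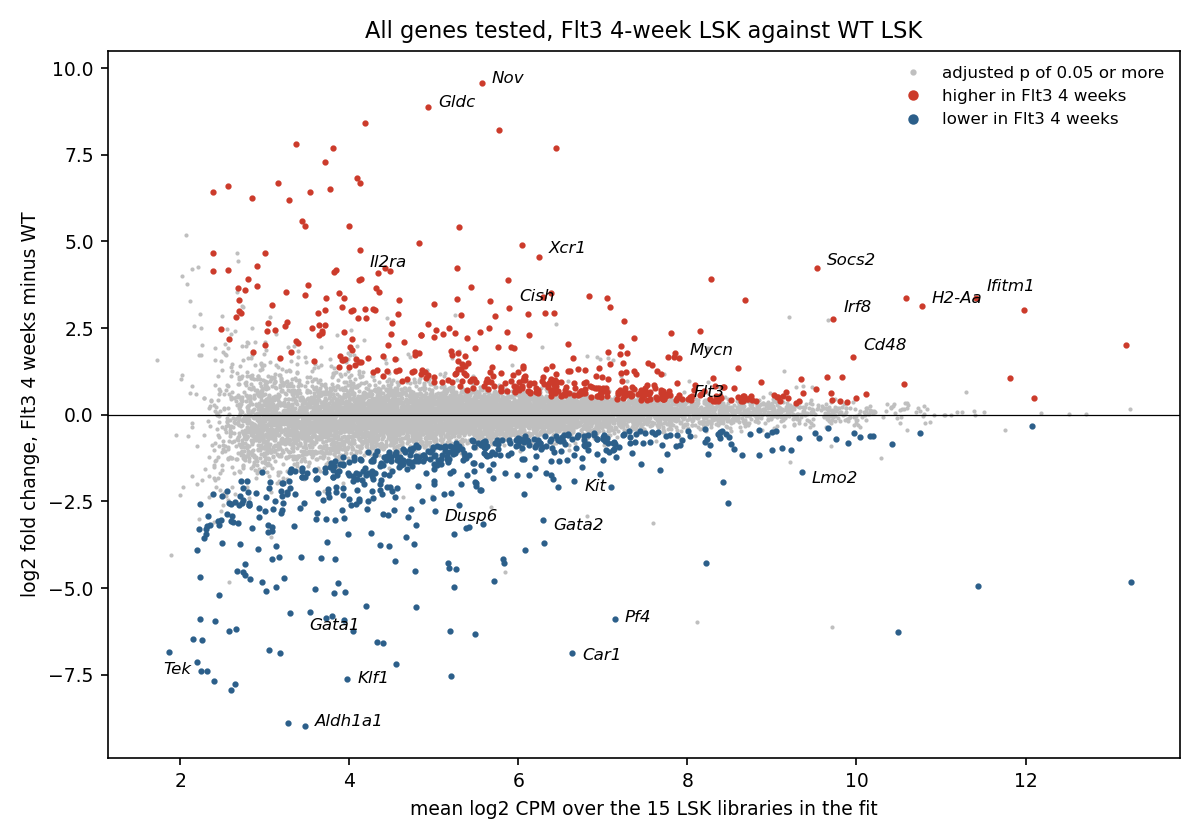
Mean log2 CPM over the 15 LSK libraries (horizontal axis) against the log2 fold change of Flt3 4-week over WT LSK (vertical axis), each point 1 of 9892 genes. Red points are the 449 genes that rose, blue points the 554 that fell and grey points the rest, with 22 genes named in the text labelled. The falls reach further at low mean levels, where stem cell, erythroid and megakaryocyte genes such as Tek, Klf1 and Gata1 lie.

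The sort markers were read first, as a check of the gate. Flt3, which lies at chr5:147330741-147400489 in GRCm38 and encodes the mutated receptor, had 264, 235 and 243 CPM in Flt3 LSK, against 151, 206 and 209 CPM in WT LSK. Every Flt3 library lay above every WT library, but the difference did not pass the test (0.40 ± 0.14, adjusted p = 0.0703). Counts per gene do not separate the mutant from the normal allele. Kit, the stem cell factor receptor used in the gate, had 53.3, 51.3 and 71.5 CPM in Flt3 LSK, against 203, 267 and 207 CPM in WT LSK. The groups did not overlap, and Kit fell (-1.91 ± 0.20, adjusted p = 1.43e-07) although every cell was sorted as Kit-positive. Ly6a, which encodes Sca-1, had 148, 223 and 339 CPM in Flt3 LSK, against 126, 79.2 and 106 CPM in WT LSK and did not pass (1.17 ± 0.37, adjusted p = 0.0717).

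Within LSK, the surface proteins CD150 (Slamf1) and CD48 separate long-term stem cells, which carry CD150 and lack CD48, from multipotent progenitors. Slamf1 had 0, 0 and 0.316 CPM in Flt3 LSK, against 20.5, 24.5 and 11.3 CPM in WT LSK. The Flt3 libraries held 1 count of Slamf1 in all and the WT libraries 114, a ratio of 99.7-fold (95% interval 17.6 to 3974) lower in Flt3 LSK by counting error alone, and the gene fell (adjusted p = 0.000127). Cd48 had 1215, 1317 and 1207 CPM in Flt3 LSK, against 329, 452 and 397 CPM in WT LSK. It rose in Flt3 LSK (1.67 ± 0.12, adjusted p = 1.49e-10), with the groups far apart and the replicates close together. Cd34 overlapped between the groups, with 897, 912 and 809.6 CPM in Flt3 LSK, against 737, 999.7 and 1007 CPM in WT LSK. The lineage genes Cd79a and Ly6g had 0 counts in all 6 libraries, and Cd3e, Cd4, Cd8a and Ms4a1 did not exceed 4.66 CPM in any of them. Other B cell genes were well above 0, with Cd79b, a chain of the B cell receptor, at 70.2 to 87.5 CPM in Flt3 LSK, against 83.4 to 118 CPM in WT LSK, and Ighm, the antibody heavy chain mu, at 295 to 411 CPM in Flt3 LSK, against 299 to 1213 CPM in WT LSK.

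**Figure D2:**
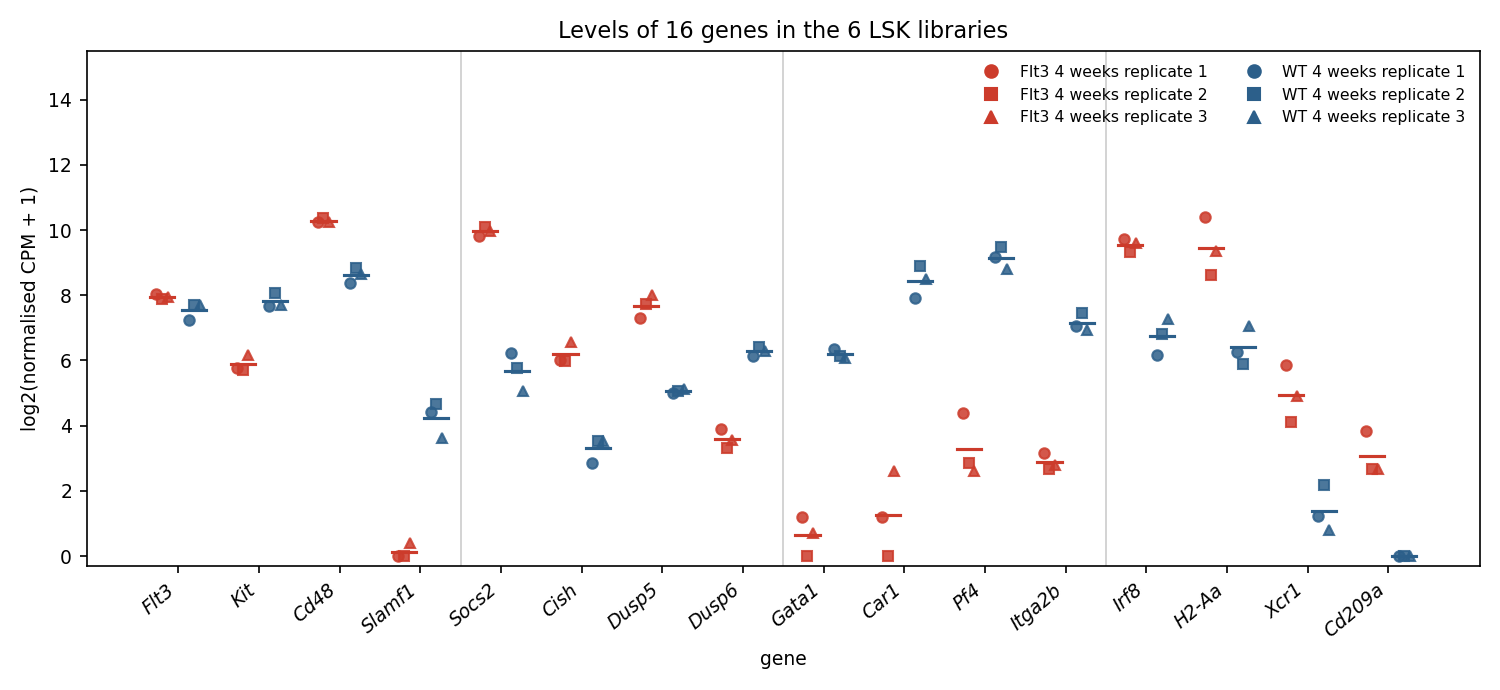
Level of 16 genes as log2(normalised CPM + 1) on the vertical axis, with the 3 Flt3 4-week LSK libraries (red) left of the 3 WT LSK libraries (blue) for each gene; bars are means of 3 libraries and marker shapes the replicates. Vertical lines separate sort markers, signalling genes, erythroid and megakaryocyte genes, and genes of dendritic cells and antigen presentation. Of the genes drawn, only the Flt3 gene did not pass the test.

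Genes induced by STAT5 were examined because the mutant receptor is known to signal through it. Of 16 listed target genes, all 16 were tested, 7 rose and 0 fell in Flt3 LSK, and the median log2 fold change of the list was 0.30 against -0.01 for all genes. The 7 are Socs2, Cish, Il2ra, Socs1, Id1, Pim2 and Ccnd2. Socs2 and Cish are feedback inhibitors of cytokine signalling that STAT5 itself switches on. Socs2, at chr10:95383903-95417321, had 896, 1102 and 1012 CPM in Flt3 LSK, against 74.1, 53.6 and 32.1 CPM in WT LSK. The lowest Flt3 library was over 10-fold above the highest WT library (4.23 ± 0.21, adjusted p = 3.99e-12). Cish, at chr9:107296659-107302784, had 63.2, 62.1 and 94.6 CPM in Flt3 LSK, against 6.29, 10.5 and 10.6 CPM in WT LSK, again with no overlap (3.07 ± 0.30, adjusted p = 3.06e-08).

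The promoter of Cish is shown because it holds a pair of STAT motifs next to each other. A STAT dimer binds the letters TTCNNNGAA, in which N is any base, and the motif reads the same on both strands. The stretch runs from 250 bases before to 30 bases after the first base of the gene (chr9:107296409-107296688, + strand, GRCm38.p6, RefSeq), with the motifs in capitals, starting at positions 1 and 12 counted from the first base of the gene.
Cish: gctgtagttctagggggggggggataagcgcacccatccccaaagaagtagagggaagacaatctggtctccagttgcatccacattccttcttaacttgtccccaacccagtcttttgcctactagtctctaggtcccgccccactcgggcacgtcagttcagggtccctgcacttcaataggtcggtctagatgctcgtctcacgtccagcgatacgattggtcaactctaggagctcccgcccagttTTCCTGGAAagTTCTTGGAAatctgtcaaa
In the 300 bases around the starts of all genes in the RefSeq table, 8.3% of 32851 promoters hold this motif. Of the 10 STAT5 targets with an entry, Cish and Socs3 hold it. The motif was chosen after the values were seen, and a match is a description of the letters.

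Il2ra, the high-affinity chain of the interleukin-2 receptor, had 21.7, 24.3 and 11.7 CPM in Flt3 LSK, against 0, 1.17 and 1.10 CPM in WT LSK and rose (4.76 ± 0.65, adjusted p = 8.43e-06). Socs1, another feedback inhibitor, had 55.3, 59.4 and 70.2 CPM in Flt3 LSK, against 18.2, 6.99 and 18.3 CPM in WT LSK (1.96 ± 0.30, adjusted p = 3.62e-05). Id1, which encodes an inhibitor of helix-loop-helix transcription factors, had 24.3, 14.4 and 13.3 CPM in Flt3 LSK, against 2.98, 0 and 1.83 CPM in WT LSK (3.03 ± 0.52, adjusted p = 0.000168). None of these overlapped between the groups. Pim2, a survival kinase gene, and Ccnd2, the gene of cyclin D2, rose by 1.02 ± 0.20 and 0.53 ± 0.17. With a library left out, the call was lost at an adjusted p of 0.0563 to 0.261 for Ccnd2 without Flt3 replicate 1 or 2 or 3 or WT replicate 2 or 3. Ccnd2 also did not pass in a fit of the 6 libraries alone (0.0743), with a block on the replicate number (0.0629) or without the 2-week libraries (0.0569). The 9 members that did not pass include the survival gene Mcl1 (-0.28 ± 0.21, adjusted p = 0.465).

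Genes of the MAPK pathway moved in both directions. The list holds 13 feedback genes that are transcribed when ERK is active, of which 7 were tested, 1 rose and 5 fell, with a median of -2.26. Dusp5, a nuclear phosphatase of ERK, had 158, 212 and 256 CPM in Flt3 LSK, against 30.8, 32.6 and 33.9 CPM in WT LSK and rose (2.69 ± 0.19, adjusted p = 4.39e-11). Dusp6, a cytoplasmic phosphatase of ERK, had 13.8, 9.00 and 10.8 CPM in Flt3 LSK, against 69.1, 85.1 and 77.4 CPM in WT LSK and fell (-2.76 ± 0.31, adjusted p = 4.48e-07). In both genes the replicates lay close together and the genotypes were several-fold apart. Spred1, an inhibitor of RAS signalling, had 13.8, 7.20 and 16.1 CPM in Flt3 LSK, against 41.4, 36.1 and 29.9 CPM in WT LSK (-1.46 ± 0.36, adjusted p = 0.0077). Spry1 and Spry2, inhibitors of receptor tyrosine kinase signalling, and the transcription factor gene Etv5 fell, with log2 fold changes of -2.26 ± 0.59, -2.33 ± 0.66 and -3.12 ± 0.77 on the log2 scale. The calls depended on the library left out, with an adjusted p of 0.0515 to 0.0719 for Spry1 without Flt3 replicate 3 or WT replicate 2, 0.0504 to 0.113 for Spry2 without Flt3 replicate 1 or 2 or 3 or WT replicate 1 or 3 and 0.0508 to 0.0618 for Etv5 without Flt3 replicate 3 or WT replicate 2. The remaining member tested, Ier3, did not pass (-0.36 ± 0.29), and the 6 others were too low to test.

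Of 16 early response genes, which cells switch on within minutes of a stimulus or of handling, 13 were tested, 1 rose and 5 fell, with a median of -0.11. Jun, a subunit of the AP-1 factor, had 50.0, 35.1 and 68.9 CPM in Flt3 LSK, against 131, 211 and 185 CPM in WT LSK and fell (-1.71 ± 0.25, adjusted p = 5.89e-05). Egr1, an immediate early transcription factor gene, had 9.21, 9.91 and 7.27 CPM in Flt3 LSK, against 20.8, 23.3 and 34.3 CPM in WT LSK and also fell (-1.63 ± 0.31, adjusted p = 0.000513). Klf2, a transcription factor gene of quiescent lymphocytes and endothelium, had 37.5, 12.6 and 37.9 CPM in Flt3 LSK, against 6.95, 6.99 and 8.03 CPM in WT LSK. It rose (2.05 ± 0.42, adjusted p = 0.00328), and its Flt3 replicate 2 lay below the other Flt3 libraries and above all WT libraries. Junb and Zfp36 also fell, Junb with a log2 fold change of -0.83 ± 0.19. Some fits without a library gave no call, with an adjusted p of 0.0562 to 0.0943 for Zfp36 without Flt3 replicate 1 or 2 or WT replicate 2 or 3. In a fit of the 6 libraries alone the adjusted p of Zfp36 was 0.109.

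Most of the genes that define the stem cell end of the LSK gate fell. Of 26 stem cell identity genes, 23 were tested, 16 fell and 1, Mycn, rose, compared with 5.6% and 4.54% of all genes tested. The list's median log2 fold change was -2.07. Members near 0 in Flt3 LSK entered the test through the libraries in which they are higher, so the count is a description. Gata2, required for the survival of stem cells, had 23.7, 36.9 and 29.7 CPM in Flt3 LSK, against 243, 234 and 254 CPM in WT LSK (-3.03 ± 0.30, adjusted p = 4.48e-07). Lmo2, a scaffold of the stem cell transcription factor complex, had 522, 499.8 and 375 CPM in Flt3 LSK, against 1388, 1490.2 and 1525 CPM in WT LSK (-1.66 ± 0.13, adjusted p = 8.94e-10). Each WT library was above each Flt3 library in both genes.

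Hlf, a transcription factor gene restricted to stem cells within the marrow, had 11.2, 10.8 and 5.38 CPM in Flt3 LSK, against 107, 36.1 and 50.0 CPM in WT LSK (-2.93 ± 0.49, adjusted p = 0.000322). Mllt3, a chromatin reader that maintains stem cells, had 5.26, 9.00 and 9.80 CPM in Flt3 LSK, against 46.0, 41.9 and 25.9 CPM in WT LSK (-2.19 ± 0.44, adjusted p = 0.00115). Mecom, the gene of the stem cell factor Evi1, had 6.58, 16.2 and 13.0 CPM in Flt3 LSK, against 54.3, 23.3 and 33.2 CPM in WT LSK and fell (-1.68 ± 0.42, adjusted p = 0.00833). Leaving out 1 library ended the call of Mecom, with an adjusted p of 0.064 to 0.0949 for Mecom without Flt3 replicate 1 or WT replicate 1. Meis1, a partner of Hox proteins, had 70.4, 95.5 and 74.0 CPM in Flt3 LSK, against 234, 213 and 226 CPM in WT LSK (-1.50 ± 0.20, adjusted p = 4.7e-06). Of 19 Hox, Meis and Pbx genes, 8 were tested, and Meis1 and Pbx3 were the 2 that fell, while 0 rose. Leaving out 1 library ended the call of Pbx3, with an adjusted p of 0.0545 to 0.117 for Pbx3 without Flt3 replicate 1 or 2 or 3 or WT replicate 2 or 3.

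Surface genes of stem cells also fell. Pdzk1ip1, whose promoter is used to mark long-term stem cells in mice, had 5.92, 2.70 and 3.79 CPM in Flt3 LSK, against 139.9, 114 and 143 CPM in WT LSK (-4.97 ± 0.37, adjusted p = 2.13e-10). Procr, which encodes the stem cell marker EPCR, had 1.97, 2.70 and 2.53 CPM in Flt3 LSK, against 35.1, 29.1 and 30.7 CPM in WT LSK (-3.68 ± 0.59, adjusted p = 8.27e-05). Esam, an adhesion molecule of stem cells and endothelium, had 5.92, 7.20 and 3.16 CPM in Flt3 LSK, against 85.7, 46.6 and 73.7 CPM in WT LSK (-3.79 ± 0.43, adjusted p = 5.26e-07). In all 3 genes the lowest WT library was several times the highest Flt3 library. Myct1 fell likewise (-3.24 ± 0.30, adjusted p = 9.94e-09).

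Tek, the receptor of angiopoietins on stem cells and endothelium, had 0 counts in all Flt3 libraries and 19.5, 14.0 and 12.4 CPM in WT LSK. With 3 counts over the Flt3 libraries taken as the floor, it was at least 30.6-fold lower in Flt3 LSK (adjusted p = 4.86e-05). Mycn, a relative of Myc and the exception in the list, had 255, 328 and 366 CPM in Flt3 LSK, against 98.6, 96.7 and 109.9 CPM in WT LSK and rose (1.63 ± 0.18, adjusted p = 4.48e-07). Of the 6 members tested that did not pass, the transcription factor gene Erg had 13.8, 16.2 and 24.4 CPM in Flt3 LSK, against 45.3, 24.5 and 23.7 CPM in WT LSK (-0.77 ± 0.38, adjusted p = 0.223). When each of the 6 libraries was left out in turn, 14 to 16 members fell. The counts cover genes that the endothelium also carries, among them Tek and Esam. The endothelial gene Emcn moved the same way, with 3.29, 0.900 and 3.79 CPM in Flt3 LSK, against 29.1, 10.5 and 16.8 CPM in WT LSK (-2.70 ± 0.55, adjusted p = 0.00127). Of 12 stromal and endothelial genes, 4 were tested, Emcn and Lpl fell, Sparc rose and 1 did not pass. In a fit of the 6 libraries alone Lpl did not pass (adjusted p = 0.076). Not all fits with 5 of the 6 libraries kept the call of Sparc, with an adjusted p of 0.0885 to 0.139 for Sparc without Flt3 replicate 2 or WT replicate 1 or 3. The part of endothelial and stromal cells in the result was not tested.

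Cytokine receptor genes were mostly not called, and most of those called fell. Of 23 listed, 22 were tested, 6 fell, among them Kit, Csf3r and Epor, and 1 rose. Csf3r, the receptor of granulocyte colony-stimulating factor, had 24.3, 37.8 and 33.5 CPM in Flt3 LSK, against 77.7, 80.4 and 103 CPM in WT LSK (-1.45 ± 0.24, adjusted p = 0.000118). Il18r1, a chain of the interleukin-18 receptor, had 17.1, 38.7 and 26.6 CPM in Flt3 LSK, against 3.64, 4.66 and 7.30 CPM in WT LSK and rose (2.34 ± 0.38, adjusted p = 9.78e-05).

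Erythroid genes of the list fell in all but 1 of the members tested. Of 18 listed genes, 14 were tested, 13 fell and 0 rose, compared with 5.6% and 4.54% of all genes tested. The median log2 fold change of those tested was -5.70, or -4.47 with the 3 genes at 0 counts in Flt3 LSK set at their bound. A gene entered the test on its counts in 3 libraries. A gene near 0 in Flt3 LSK thus entered through the libraries in which it is higher, and the count is a description. This limit also holds for the counts of megakaryocyte and macrophage genes given below. Gata1, the master regulator of red cells and platelets, on chromosome X, had 1.32, 0 and 0.632 CPM in Flt3 LSK, against 80.4, 68.7 and 67.2 CPM in WT LSK (-6.56 ± 0.54, adjusted p = 1.35e-09). Klf1, the red cell factor that acts with it, had 0, 0.900 and 0 CPM in Flt3 LSK, against 42.3, 50.1 and 58.0 CPM in WT LSK. The Flt3 libraries held 1 count of Klf1 and the WT libraries 330, a ratio of 289-fold (95% interval 51.5 to 11440.0) lower in Flt3 LSK (adjusted p = 7.07e-09). The Flt3 libraries thus lay at or near 0 for both factors.

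Car1, a carbonic anhydrase of early erythroid progenitors, had 1.32, 0 and 5.06 CPM in Flt3 LSK, against 239, 479 and 363 CPM in WT LSK (-6.87 ± 0.57, adjusted p = 3.95e-06). Blvrb, an enzyme of haem breakdown abundant in red cells, had 6.58, 9.00 and 10.4 CPM in Flt3 LSK, against 137, 141 and 241 CPM in WT LSK (-4.27 ± 0.28, adjusted p = 2.65e-11). Epor, the erythropoietin receptor, had 1.97, 0 and 0.316 CPM in Flt3 LSK, against 12.9, 19.8 and 21.5 CPM in WT LSK (-4.51 ± 0.79, adjusted p = 0.000295). No Flt3 library reached a WT library in any of these. Ermap and Rhd, genes of blood group membrane proteins, had 0 counts in Flt3 LSK, against 10.3, 21.0 and 9.13 and 10.9, 16.3 and 22.3 CPM in WT LSK. Rhd was at least 31.5-fold lower and Ermap at least 21.6-fold lower in Flt3 LSK. The globin genes Hba-a1 and Hbb-b1, of which Hbb-b1 is not in the list, fell, with 0, 2.70 and 0.949 CPM of Hba-a1 in Flt3 LSK, against 73.1, 26.8 and 52.2 CPM in WT LSK. The alpha and beta globin genes each have near-identical copies between which reads can be split, and Hbb-b2, also outside the list, had 80.3, 142 and 137 CPM in Flt3 LSK, against 81.0, 32.6 and 61.0 CPM in WT LSK, which did not pass (0.97 ± 0.32, adjusted p = 0.0634). Under 4 of 14 alternatives Hbb-b2 was called higher in Flt3 LSK, with an adjusted p over all 14 of 4.58e-05 to 0.201. Nfe2 was the member of the list that was tested and did not pass, with 518, 656 and 515 CPM in Flt3 LSK, against 706, 726 and 779.7 CPM in WT LSK.

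GATA factors bind the letters AGATAA, read on either strand as AGATAA or TTATCT. The promoters of 3 genes are shown because their genes were at or near 0 in Flt3 LSK and hold this motif close to the start. Each runs from 250 bases before to 30 bases after the first base of the gene, on the strand of the gene, in GRCm38.p6 from RefSeq. Epor lies on the - strand (chr9:21963547-21963826, motif from position -54), Rhd on the + strand (chr4:134864286-134864565, from -43) and Gp5, a platelet gene, on the - strand (chr16:30310752-30311031, from -93 and -77). Capitals mark the motif.
Epor: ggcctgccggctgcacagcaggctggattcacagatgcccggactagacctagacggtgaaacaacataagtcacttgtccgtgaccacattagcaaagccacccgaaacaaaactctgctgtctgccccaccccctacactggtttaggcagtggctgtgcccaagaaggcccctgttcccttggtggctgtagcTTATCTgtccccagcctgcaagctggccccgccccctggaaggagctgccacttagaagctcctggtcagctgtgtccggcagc
Rhd: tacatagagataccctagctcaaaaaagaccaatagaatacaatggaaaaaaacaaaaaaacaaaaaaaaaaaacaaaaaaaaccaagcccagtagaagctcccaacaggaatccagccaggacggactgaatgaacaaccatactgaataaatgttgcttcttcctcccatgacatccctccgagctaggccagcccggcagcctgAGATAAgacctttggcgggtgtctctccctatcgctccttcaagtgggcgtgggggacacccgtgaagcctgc
Gp5: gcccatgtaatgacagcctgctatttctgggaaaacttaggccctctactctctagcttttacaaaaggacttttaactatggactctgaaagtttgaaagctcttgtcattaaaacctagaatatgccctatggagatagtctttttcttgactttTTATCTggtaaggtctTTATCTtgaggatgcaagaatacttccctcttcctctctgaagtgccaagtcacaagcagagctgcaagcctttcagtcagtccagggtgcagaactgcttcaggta
The motif occurred in 4 of 13 erythroid promoters, in 3 of 12 megakaryocyte promoters and in 4 of 20 stem cell promoters found in the table, against 11.2% of all 32851. It too was chosen after the values were seen.

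Megakaryocyte genes fell as well. Of 16 listed genes, 13 were tested, 10 fell and 0 rose, with a median of -3.45. Pf4, a chemokine stored in platelet granules, had 19.7, 6.30 and 5.06 CPM in Flt3 LSK, against 579.6, 707 and 450.1 CPM in WT LSK (-5.89 ± 0.53, adjusted p = 2.03e-05). Itga2b, the platelet integrin CD41, had 7.89, 5.40 and 6.01 CPM in Flt3 LSK, against 132, 176 and 121 CPM in WT LSK (-4.45 ± 0.37, adjusted p = 2.17e-09). Selp, the adhesion molecule P-selectin, had 0.658, 3.60 and 2.21 CPM in Flt3 LSK, against 93.6, 73.4 and 128 CPM in WT LSK (-5.53 ± 0.44, adjusted p = 7.31e-10). In all 3 genes the genotypes were far apart in every library. Gp9 and Gp5, subunits of the receptor for von Willebrand factor, had 7.24, 3.60 and 4.43 CPM and 0.658, 6.30 and 0.316 CPM in Flt3 LSK, against 59.2, 53.6 and 50.7 CPM and 50.9, 59.4 and 47.1 CPM in WT LSK. Vwf itself, which also marks platelet-biased stem cells, fell by 3.00 ± 0.67 on the log2 scale. Ppbp, another chemokine of platelet granules, was among the 3 that did not pass (-3.54 ± 1.38, adjusted p = 0.144).

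Markers of other marrow cells moved with the genotype and are set beside the erythroid and megakaryocyte results. Iron-recycling macrophages digest red cells and sit in the centre of erythroblast islands. Of 18 of their genes, 13 were tested, 10 fell and 0 rose, with a median of -4.28. Their summed level was 156, 139 and 140.4 CPM in Flt3 LSK, against 466, 913 and 2729.7 CPM in WT LSK. WT replicate 3 was the highest and WT replicate 1 the lowest, a spread that the Flt3 libraries did not have. Slc40a1, the iron exporter ferroportin, had 1.97, 1.80 and 1.90 CPM in Flt3 LSK, against 45.0, 94.4 and 303 CPM in WT LSK (-6.24 ± 0.73, adjusted p = 5.05e-05). Fcna, a lectin of macrophages, had 2.63, 0.900 and 2.53 CPM in Flt3 LSK, against 47.3, 113 and 388 CPM in WT LSK (-6.33 ± 1.02, adjusted p = 0.00219), and the complement gene C1qb had 21.7, 3.60 and 10.4 CPM in Flt3 LSK, against 84.7, 159.6 and 406 CPM in WT LSK (-4.16 ± 0.67, adjusted p = 0.00199). In a fit of the 6 libraries alone 4 of the 13 macrophage genes fell in place of 10, and these 3 did not pass, with an adjusted p of 0.0542 for Slc40a1, 0.0676 for Fcna and 0.0696 for C1qb.

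The summed erythroid level was 691, 900.5 and 701 CPM in Flt3 LSK, against 2377, 2726 and 2742 CPM in WT LSK, and the summed megakaryocyte level 234, 198 and 185 CPM in Flt3 LSK, against 1313, 1560.1 and 1174 CPM in WT LSK. Most of the erythroid sum came from Nfe2, which did not pass, and from Car2. Car2 had 152 to 217 CPM in Flt3 LSK, against 919 to 1072 CPM in WT LSK. The erythroid sum was lowest in WT replicate 1, as was the macrophage sum, and WT replicates 2 and 3 were nearly equal in it. Among the erythroid list members with levels given above, Klf1, Blvrb, Epor, Rhd and Nfe2 had the WT order of the macrophage sum. Gata1, Car1, Ermap and Hba-a1 did not, and the megakaryocyte sum had another order. The share of all genes with this WT order is not given here, so the split between these genes has no measure. Without WT replicate 3, 13 erythroid, 10 megakaryocyte, 15 stem cell and 9 macrophage genes fell, compared with 13, 10, 16 and 10 with all libraries. The macrophage sums of the 2 WT libraries then left were also above those of all Flt3 libraries. Genes of B and plasma cells summed to 524, 432 and 424 CPM in Flt3 LSK, against 901, 2497 and 2068 CPM in WT LSK. Of 10 listed, 5 were tested and 2 fell, Igkc with 18.4, 10.8 and 36.4 CPM in Flt3 LSK, against 388, 1172 and 526 CPM in WT LSK and Igj, the joining chain of antibodies, with 5.26, 1.80 and 8.85 CPM in Flt3 LSK, against 125, 266 and 200.4 CPM in WT LSK. Of 15 basophil and mast cell genes, 8 were tested and 3 fell, among them Cpa3, with 3.95, 9.00 and 9.80 CPM in Flt3 LSK, against 64.2, 103 and 94.2 CPM in WT LSK (-3.44 ± 0.57, adjusted p = 0.000918), with Hdc and Fcer1a the others. In a fit of the 6 libraries alone 5 fell. With a library left out, the call was lost at an adjusted p of 0.0587 to 0.107 for Fcer1a without Flt3 replicate 1 or 3 or WT replicate 3. The antibody and basophil genes were lowest in WT replicate 1 and still higher there than in any Flt3 4-week library for Igkc, Igj and Cpa3. The part of these cells in the other results was not tested.

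**Figure D3:**
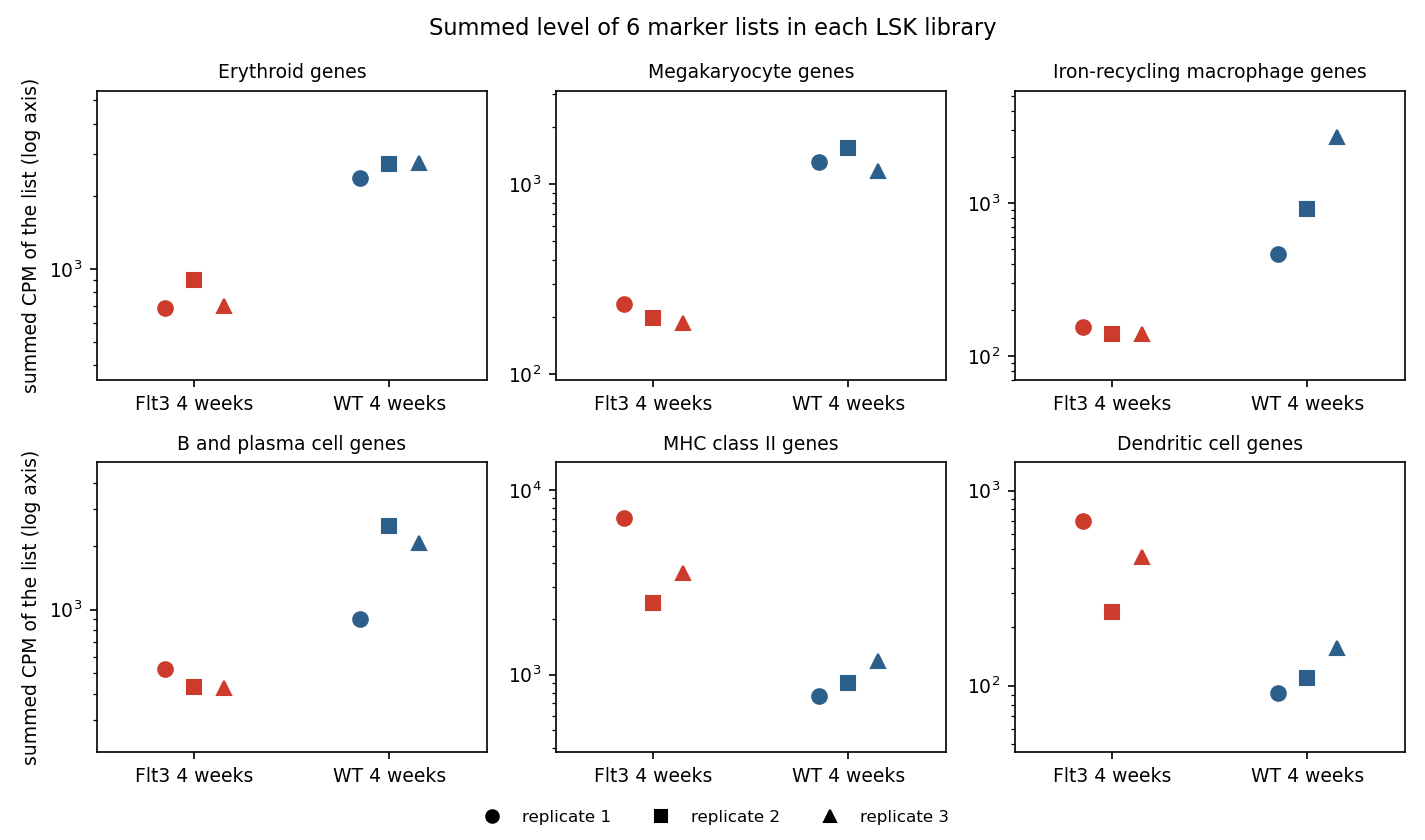
Summed CPM of 6 marker lists (vertical log axes) in each library, Flt3 4-week LSK (red) left of WT LSK (blue), with shapes for replicates. The erythroid and megakaryocyte sums of the WT libraries lie within a narrow band above the Flt3 libraries, the macrophage sums of the WT libraries spread widely, and the MHC class II and dendritic sums are highest in Flt3 replicate 1 and lowest in Flt3 replicate 2 among the Flt3 libraries.

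On the myeloid side, 5 of 10 class II genes and 5 of 12 dendritic cell genes tested rose, compared with 4.54% of all genes tested. A gene near 0 in WT LSK entered the test through the Flt3 libraries in which it is higher, so both counts are a description. Of 11 MHC class II genes, whose products present peptides to helper T cells, 10 were tested, 5 rose and 0 fell, with a median of 2.40. H2-Aa, the alpha chain of I-A, had 1352, 392 and 654 CPM in Flt3 LSK, against 75.8, 58.3 and 132 CPM in WT LSK (3.13 ± 0.61, adjusted p = 0.00781). H2-Ab1, its beta chain, had 3226, 841 and 1412 CPM in Flt3 LSK, against 171, 242 and 269 CPM in WT LSK (3.01 ± 0.65, adjusted p = 0.0139), and H2-Eb1 of I-E had 1125, 338 and 546 CPM in Flt3 LSK, against 35.7, 64.1 and 94.5 CPM in WT LSK (3.37 ± 0.69, adjusted p = 0.00987). In each of them Flt3 replicate 1 was highest and Flt3 replicate 2 lowest, and replicate 2 was still above all WT libraries. The others that rose are H2-DMb2, of the peptide-loading factor, and Ciita. Ciita, the transactivator of these genes, had 13.8, 4.50 and 9.17 CPM in Flt3 LSK, against 0.662, 2.33 and 2.56 CPM in WT LSK (2.41 ± 0.69, adjusted p = 0.0227). Cd74, the invariant chain, had 398, 265 and 211 CPM in Flt3 LSK, against 15.2, 23.3 and 84.3 CPM in WT LSK and did not pass (2.75 ± 0.80, adjusted p = 0.0576).

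These calls are close to the threshold. In a fit of the 6 libraries alone 2 class II genes rose, and the adjusted p was 0.0546 for H2-Aa, 0.0564 for H2-Ab1 and 0.0516 for H2-Eb1. Leaving out 1 library ended the calls of some, with an adjusted p of 0.0502 to 0.0646 for H2-Ab1 without WT replicate 1 or 3, of 0.073 for H2-DMb2 without WT replicate 3 and of 0.0577 to 0.141 for Ciita without Flt3 replicate 1 or 3 or WT replicate 1. The count of class II genes that rose was 3 without WT replicate 1 and 4 to 6 without any other of the 6 libraries.

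Of 15 dendritic cell genes, 12 were tested, 5 rose and 0 fell, with a median of 2.24. Xcr1, the chemokine receptor of cross-presenting dendritic cells, had 57.2, 16.2 and 28.8 CPM in Flt3 LSK, against 1.32, 3.50 and 0.730 CPM in WT LSK (4.56 ± 0.83, adjusted p = 0.00379). Clec9a, a receptor for dead cells on the same dendritic cells and their precursors, had 11.8, 3.60 and 5.06 CPM in Flt3 LSK, against 1.32, 0 and 0 CPM in WT LSK (3.37 ± 0.77, adjusted p = 0.00389). Cd209a, a lectin of monocyte-derived and conventional dendritic cells, had 13.2, 5.40 and 5.38 CPM in Flt3 LSK and 0 counts in WT LSK, at least 16.4-fold higher in Flt3 LSK (adjusted p = 8.43e-06). All 3 were highest in Flt3 replicate 1. Naaa, an acid amidase gene, and Batf3, the factor required for cross-presenting dendritic cells, rose by 3.32 ± 0.69 and 3.27 ± 0.87. The calls depended on the library left out, with an adjusted p of 0.0596 for Naaa without WT replicate 1 and 0.067 to 0.14 for Batf3 without Flt3 replicate 1 or 3 or WT replicate 1 or 2 or 3. The count of dendritic genes that rose was 3 without WT replicate 1, and 4 to 7 without any other of the 6 libraries.

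The order of the Flt3 libraries described for the class II genes was counted over the lists. Replicate 1 was above replicate 3 and replicate 3 above replicate 2 in 7 of the 10 class II genes tested. The same held for 7 of 12 dendritic genes and 11 of 16 monocyte genes. This compares with 18.6% of all genes tested and 22.05% of the genes that rose. The class II and dendritic counts are a description, as values of these genes were seen before the order was counted. The summed class II level was 7068, 2429 and 3534 CPM in Flt3 LSK, against 762, 902 and 1178 CPM in WT LSK, and the summed dendritic level 699, 239 and 454 CPM in Flt3 LSK, against 91.3, 109.5 and 156 CPM in WT LSK. The lowest Flt3 library was above the highest WT library on both sums.

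Of 19 monocyte genes, 16 were tested, 2 rose and 1 fell, with a median of 0.50. Irf8, the factor that directs progenitors to monocytes and dendritic cells, had 847, 639 and 783 CPM in Flt3 LSK, against 71.1, 112 and 153 CPM in WT LSK. It rose with no overlap and with little spread among the Flt3 libraries (2.76 ± 0.33, adjusted p = 0.000169). Ccr2, the chemokine receptor of monocytes, had 59.9, 18.9 and 38.3 CPM in Flt3 LSK, against 5.29, 2.33 and 6.94 CPM in WT LSK (2.84 ± 0.61, adjusted p = 0.00882). Without WT replicate 1 the adjusted p of Ccr2 was 0.0596, and 1 monocyte gene rose. Without Flt3 replicate 2 or WT replicate 3 the number that rose was 5. Lyz2, the lysozyme of macrophages and granulocytes, had 376, 350.3 and 275 CPM in Flt3 LSK, against 591, 656 and 983 CPM in WT LSK and fell (-1.16 ± 0.17, adjusted p = 4.62e-05), with WT replicate 3 the highest. The other 13 monocyte genes tested did not pass with all libraries.

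Granulocyte genes split. Of 12 primary granule genes, which mark granulocyte-monocyte progenitors, 10 were tested, 1 rose and 2 fell, with a median of -0.17. Cst7, the protease inhibitor cystatin F, had 357, 387 and 366 CPM in Flt3 LSK, against 64.8, 60.6 and 80.3 CPM in WT LSK and rose (2.41 ± 0.17, adjusted p = 4.39e-11). Elane, the gene of neutrophil elastase, had 42.1, 17.1 and 15.2 CPM in Flt3 LSK, against 73.1, 73.4 and 135 CPM in WT LSK and fell (-1.96 ± 0.36, adjusted p = 0.000889), and Ms4a3 had 71.1, 26.1 and 25.9 CPM in Flt3 LSK, against 102, 169 and 141 CPM in WT LSK and fell (-1.74 ± 0.39, adjusted p = 0.00781). Of 14 genes of late neutrophils, 5 were tested, 1 rose and 3 fell. S100a8 and S100a9, abundant proteins of mature neutrophils, had 0.658, 6.30 and 2.21 and 0, 0.900 and 0.949 CPM in Flt3 LSK, against 21.5, 12.8 and 52.6 and 12.2, 9.32 and 17.2 CPM in WT LSK. Both fell (-3.44 ± 0.60, adjusted p = 0.000266 and -4.15 ± 0.84, adjusted p = 0.00125), as did Ngp, while Ifitm6 rose with groups that overlapped. Some fits without a library gave no call, with an adjusted p of 0.0537 to 0.136 for Ngp without Flt3 replicate 1 or 2 or 3 or WT replicate 3 and 0.0511 for Ifitm6 without WT replicate 3.

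Genes of lymphoid priming moved little as a list. Of 24 listed genes, 17 were tested, 1 rose and 3 fell, with a median of -0.06. Il7r, the interleukin-7 receptor of lymphoid progenitors, had 0 counts in Flt3 LSK and 3.31, 16.3 and 4.38 CPM in WT LSK, at least 10.5-fold lower in Flt3 LSK (adjusted p = 0.00433). Lsp1, a leukocyte actin-binding protein gene, had 491, 380.0 and 484 CPM in Flt3 LSK, against 225, 209.7 and 231 CPM in WT LSK and rose (1.03 ± 0.17, adjusted p = 0.000208). Blnk and Bcl11a also fell, with an adjusted p of 0.0336 and 0.0342. Not all fits with 5 of the 6 libraries kept the calls, with an adjusted p of 0.0542 to 0.191 for Blnk without Flt3 replicate 1 or 2 or 3 or WT replicate 3 and 0.0619 to 0.154 for Bcl11a without Flt3 replicate 1 or 2 or 3 or WT replicate 1 or 2. With a block on the replicate number it was 0.0552 for Bcl11a. Ly6d, a marker of the B cell fate, had 28.3, 49.5 and 87.9 CPM in Flt3 LSK, against 19.2, 18.6 and 19.3 CPM in WT LSK and did not pass (1.59 ± 0.51, adjusted p = 0.0779). Of 11 T and NK cell genes, 5 were tested and 0 rose or fell, with Nkg7, a granule protein gene, at 618, 629 and 631 CPM in Flt3 LSK, against 678, 821 and 735 CPM in WT LSK.

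**Figure D4:**
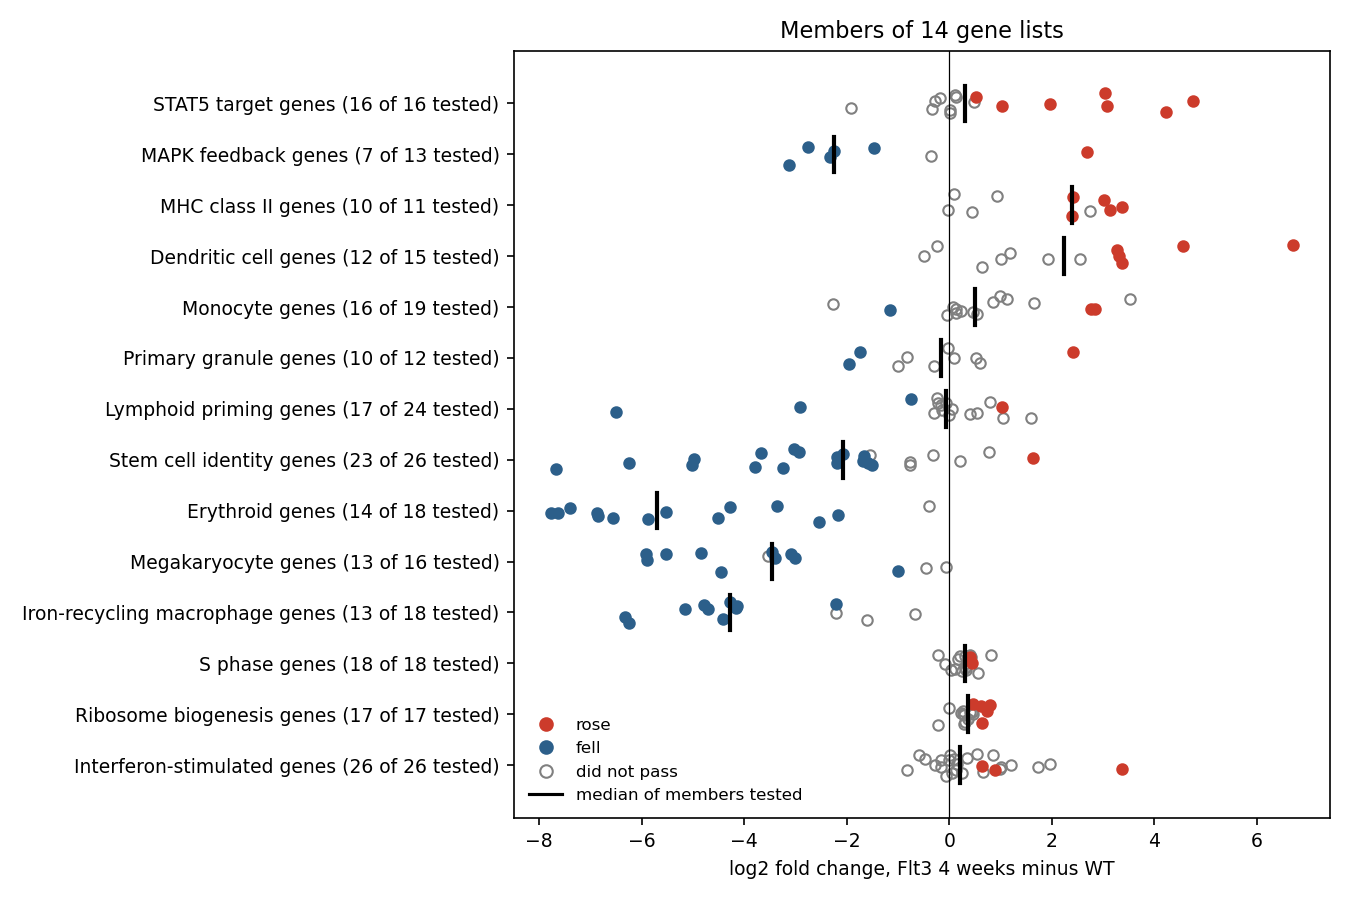
Log2 fold change of Flt3 4-week over WT LSK (horizontal axis) for the tested members of 14 gene lists, each point 1 gene, filled red where it rose, filled blue where it fell and open where it did not pass; black bars are medians of the members tested, with genes at 0 counts at their fitted value. Erythroid, megakaryocyte, macrophage and stem cell genes lie mostly left of 0, and MHC class II and dendritic genes mostly right of it.

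Genes of proliferation and growth changed by small amounts, and 4.54% of all genes tested rose. The Flt3 libraries lay wholly above the WT libraries in 9 of 18 S phase, 4 of 18 G2/M and 10 of 17 ribosome biogenesis genes. This compares with 14.2% of all genes tested. Of 18 S phase genes, 18 were tested, 2 rose (Mcm5 and Rrm2) and 0 fell, with a median of 0.31. Mcm5, a subunit of the replicative helicase, had 461, 429 and 396 CPM in Flt3 LSK, against 290.1, 355 and 308 CPM in WT LSK (0.44 ± 0.12, adjusted p = 0.0201). With a library left out, calls were lost at an adjusted p of 0.104 to 0.145 for Mcm5 without Flt3 replicate 1 or WT replicate 1 or 3 and 0.0545 to 0.221 for Rrm2 without Flt3 replicate 1 or 2 or WT replicate 1 or 2 or 3. Rrm2 also did not pass with median-ratio size factors (0.0519), a block on the replicate number (0.06) or without the 2-week libraries (0.0505). Of 18 G2/M genes, 18 were tested and 0 rose or fell, with a median of 0.12. Of 17 ribosome biogenesis genes, 17 were tested, 5 rose and 0 fell, with a median of 0.37. Nolc1, a nucleolar chaperone gene, had 245, 221 and 255 CPM in Flt3 LSK, against 190.2, 135 and 134 CPM in WT LSK (0.64 ± 0.14, adjusted p = 0.00315). Bop1, needed to process ribosomal RNA, had 159, 185 and 155 CPM in Flt3 LSK, against 108, 83.9 and 103 CPM in WT LSK (0.74 ± 0.16, adjusted p = 0.00317). Neither overlapped between the genotypes. The others that rose are Nip7, Rrp9 and Nop56. The calls depended on the library left out, with an adjusted p of 0.0683 to 0.0754 for Nip7 without Flt3 replicate 2 or WT replicate 3, 0.0534 to 0.0608 for Rrp9 without Flt3 replicate 1 or WT replicate 1 and 0.0721 to 0.188 for Nop56 without Flt3 replicate 1 or 3 or WT replicate 1 or 2 or 3.

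Genes of survival and stress gave few calls, to be set beside the 4.54% of all genes tested that rose. Of 15 Bcl2 family genes, 13 were tested, 1 rose and 0 fell. Without WT replicate 3 or Flt3 8-week replicate 3 the number that rose was 4, and without Flt3 replicate 2 or WT replicate 2 it was 2. Bcl2, the anti-apoptotic founder of the family, had 143, 139 and 127 CPM in Flt3 LSK, against 65.5, 45.4 and 47.5 CPM in WT LSK (1.34 ± 0.18, adjusted p = 4.7e-06). Of 13 p53 targets, 8 were tested and 1 rose. Cdkn1a, the cyclin-dependent kinase inhibitor p21, had 102, 133 and 101 CPM in Flt3 LSK, against 21.8, 11.7 and 8.03 CPM in WT LSK (2.94 ± 0.26, adjusted p = 7.07e-09). In both genes the lowest Flt3 library was above the highest WT library. The p53 target gene Bax did not pass (0.70 ± 0.25, adjusted p = 0.0719).

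Of 26 interferon-stimulated genes, 26 were tested, 3 rose and 0 fell, with a median of 0.20. Ifitm1, a membrane protein that blocks virus entry, had 3574, 2057 and 5032 CPM in Flt3 LSK, against 472, 367 and 190.2 CPM in WT LSK (3.38 ± 0.46, adjusted p = 0.000763). Ifitm3 of the same family had 1351, 1523 and 2235 CPM in Flt3 LSK, against 1233, 705 and 814 CPM in WT LSK (0.89 ± 0.22, adjusted p = 0.014), and the family's members resemble each other enough that reads may be shared. Without WT replicate 3 the adjusted p of Ifitm3 was 0.0782, and in a fit of the 6 libraries alone 0.0677. The third, Bst2, is the tetherin that holds virus on the cell surface. Some fits without a library gave no call, with an adjusted p of 0.155 to 0.179 for Bst2 without Flt3 replicate 2 or 3 or WT replicate 2 or 3. Bst2 also did not pass in a fit of the 6 libraries alone (0.101), with a block on the replicate number (0.0681) or without the 2-week libraries (0.0569). The classical targets Isg15 and Irf7 did not pass (0.86 ± 0.73, adjusted p = 0.552 and 0.98 ± 0.48, adjusted p = 0.268).

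Metabolic lists likewise gave few calls, to be set beside the 4.54% of all genes tested that rose and the 5.6% that fell. Of 16 cholesterol synthesis genes, 12 were tested, 2 rose (Sqle and Cyp51) and 0 fell. Not all fits with 5 of the 6 libraries kept the calls, with an adjusted p of 0.0543 to 0.103 for Sqle without Flt3 replicate 1 or 2 or WT replicate 3 and 0.0648 to 0.188 for Cyp51 without Flt3 replicate 2 or WT replicate 1 or 2 or 3. Of 16 glycolysis genes, 14 were tested, 1 rose (Tpi1) and 2 fell. The hexokinase gene Hk1 had 81.6, 108 and 62.0 CPM in Flt3 LSK, against 169, 196 and 189 CPM in WT LSK (-1.16 ± 0.23, adjusted p = 0.00115), and the glucose transporter gene Slc2a3 had 22.4, 19.8 and 34.5 CPM in Flt3 LSK, against 54.3, 54.8 and 65.3 CPM in WT LSK (-1.14 ± 0.28, adjusted p = 0.00699). With a library left out, the call was lost at an adjusted p of 0.0754 to 0.23 for Tpi1 without Flt3 replicate 1 or 3 or WT replicate 2 or 3. With a block on the replicate number it was 0.0525 for Tpi1. Of 13 mitochondrially encoded genes 7 were tested, of 7 DNA methylation genes 6 were tested, and 0 rose or fell. Dnmt1, the maintenance methyltransferase, had 273, 321 and 335 CPM in Flt3 LSK, against 286, 248 and 233 CPM in WT LSK. Of 13 genes that link membranes to the cytoskeleton, 13 were tested, 1 rose and 2 fell. S100a4 had 49.3, 57.6 and 84.4 CPM in Flt3 LSK, against 22.5, 36.1 and 20.4 CPM in WT LSK (1.40 ± 0.26, adjusted p = 0.000474), while the annexin genes Anxa5 and Anxa1 fell (-0.70 ± 0.16, adjusted p = 0.00424 and -0.91 ± 0.24, adjusted p = 0.0199). The calls depended on the library left out, with an adjusted p of 0.0573 for Anxa5 without WT replicate 3 and 0.0521 to 0.0789 for Anxa1 without Flt3 replicate 2 or 3 or WT replicate 2 or 3.

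The largest rises brought in genes outside these lists. Nov, also called Ccn3, encodes a secreted matricellular protein and lies at chr15:54745910-54753762. It had 55.3, 60.3 and 58.2 CPM in Flt3 LSK and 0 counts in all WT libraries, at least 128-fold higher in Flt3 LSK (adjusted p = 2.39e-11). Gldc, the glycine decarboxylase of mitochondria, had 32.9, 35.1 and 38.6 CPM in Flt3 LSK and 0 counts in WT LSK, at least 80.4-fold higher (adjusted p = 0.000195). The Flt3 replicates of both genes lay close together. Tcrg-C, a constant gene of the T cell receptor gamma chain, had 11.8, 4.50 and 31.9 CPM in Flt3 LSK and 0 counts in WT LSK, at least 47.2-fold higher (adjusted p = 0.00106). In all, 15 genes that rose had 0 counts in every WT library.

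Stxbp6, which encodes a binding partner of syntaxin, had 29.6, 56.7 and 45.5 CPM in Flt3 LSK, against 0, 0 and 3.29 CPM in WT LSK (4.94 ± 0.55, adjusted p = 9.71e-07). Camk2b, a calcium and calmodulin-dependent kinase gene, had 22.4, 36.9 and 18.0 CPM in Flt3 LSK, against 1.32, 0 and 1.83 CPM in WT LSK (4.15 ± 0.53, adjusted p = 3.08e-06). Both were higher in every Flt3 library. Upk1b, Itgae, Olfm1 and Amica1 also rose, and each followed the order of the class II genes, highest in Flt3 replicate 1 and lowest in Flt3 replicate 2. Itgae, the CD103 integrin of cross-presenting dendritic cells, had 36.8, 10.8 and 18.3 CPM in Flt3 LSK, against 0.992, 0 and 0 CPM in WT LSK. The WT libraries held 3 counts of Itgae and the Flt3 libraries 126, a ratio of 48.0-fold (95% interval 16.1 to 236). Amica1, an adhesion molecule of leukocytes, had 37.5, 8.10 and 24.4 CPM in Flt3 LSK, against 0.992, 1.17 and 1.46 CPM in WT LSK (4.23 ± 0.77, adjusted p = 0.00199). Some fits without a library gave no call, with an adjusted p of 0.053 to 0.0647 for Upk1b without Flt3 replicate 3 or WT replicate 1 or 3, 0.0717 to 0.0819 for Itgae without WT replicate 1 or 3 and 0.0573 to 0.102 for Olfm1 without Flt3 replicate 1 or 3 or WT replicate 1 or 3.

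Among the largest falls, Gdf3, a growth factor gene of the TGF-beta family, had 1.32, 0.900 and 0 CPM in Flt3 LSK, against 122, 90.9 and 53.3 CPM in WT LSK. The Flt3 libraries held 3 counts and the WT libraries 593, a ratio of 173-fold (95% interval 58.9 to 841) lower in Flt3 LSK (adjusted p = 1.74e-08). Gng11, a G protein gamma subunit of platelets and endothelium, had 0.658, 2.70 and 0 CPM in Flt3 LSK, against 79.7, 75.7 and 74.8 CPM in WT LSK (-6.58 ± 0.63, adjusted p = 4.2e-08). Trim47, a ubiquitin ligase gene, had 1.32, 1.80 and 0 CPM in Flt3 LSK, against 57.6, 64.1 and 61.0 CPM in WT LSK (-6.23 ± 0.64, adjusted p = 1.67e-07). The WT libraries of Gng11 and Trim47 lay within a narrow range far above the Flt3 libraries. Aldh1a1, a retinaldehyde dehydrogenase of stem cells, had 0 counts in Flt3 LSK and 53.6, 32.6 and 27.0 CPM in WT LSK, at least 77.0-fold lower in Flt3 LSK (adjusted p = 4.7e-06). Mfsd2b, the sphingosine phosphate exporter of red cells and platelets, had 0 counts in Flt3 LSK and 29.8, 55.9 and 25.6 CPM in WT LSK, at least 60.7-fold lower. Sox6, a factor of red cell maturation, had 0 counts in Flt3 LSK and 18.9, 19.8 and 17.9 CPM in WT LSK, at least 35.9-fold lower. Iglc2, an antibody light chain gene, fell too, and WT replicate 2 was the highest, with 0, 0.900 and 0.316 CPM in Flt3 LSK, against 10.3, 97.9 and 17.2 CPM in WT LSK. Not all fits with 5 of the 6 libraries kept the call, with an adjusted p of 0.0629 to 0.129 for Iglc2 without Flt3 replicate 1 or 2 or 3. In all, 11 genes that fell had 0 counts in every Flt3 4-week library.

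The genotype comparison used LSK of 4 weeks, and the Flt3 libraries of 2, 6 and 8 weeks show how its genes stood at the other times. Socs2 had 884, 846 and 743 CPM at 2 weeks, 960.0, 967 and 929 CPM at 6 weeks and 940.3, 899.9 and 752 CPM at 8 weeks, all above the highest WT library. Gata1 had 14.0, 6.64 and 8.06 CPM at 2 weeks, 0.340, 1.60 and 0 CPM at 6 weeks and 1.44, 3.45 and 0 CPM at 8 weeks, all below the lowest WT library. H2-Aa had 3676, 6005 and 6408 CPM at 2 weeks, 564, 1225 and 609.7 CPM at 6 weeks and 1003, 1334 and 2838 CPM at 8 weeks, so that the 2-week libraries were the highest. The series holds no WT LSK of those weeks, so the genotypes are compared at 4 weeks alone.

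Flt3 LSK of 4 weeks were then tested against the mean of Flt3 LSK of 2, 6 and 8 weeks in the same fit. Of 9892 genes, 4 passed (0.0404%), 1 higher (0.0101%) and 3 lower (0.0303%) at 4 weeks, while 1020 genes had an unadjusted p under 0.05. Junb, a subunit of AP-1, had 306, 435 and 399 CPM at 2 weeks, 62.5, 38.7 and 71.2 CPM at 4 weeks, 99.3, 128 and 106 CPM at 6 weeks and 52.0, 57.5 and 52.3 CPM at 8 weeks (-1.15 ± 0.17, adjusted p = 0.00122). S100a6, a calcium-binding protein gene, had 524, 533 and 517 CPM at 2 weeks, 159, 156 and 157 CPM at 4 weeks, 203, 204 and 159.9 CPM at 6 weeks and 228, 228 and 209 CPM at 8 weeks (-0.84 ± 0.12, adjusted p = 0.00122). Crip1, a LIM domain protein gene, had 2760.2, 3315 and 3206 CPM at 2 weeks, 1034, 772 and 964 CPM at 4 weeks, 1059, 1608 and 1030.4 CPM at 6 weeks and 1197, 1323 and 1909.6 CPM at 8 weeks (-0.94 ± 0.15, adjusted p = 0.016). The 2-week libraries were the highest in these 3 genes.

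Slc35d3, a sugar nucleotide transporter gene of platelet granules, went the other way. It had 4.21, 7.47 and 8.06 CPM at 2 weeks, 32.9, 41.4 and 48.4 CPM at 4 weeks, 50.3, 30.4 and 36.7 CPM at 6 weeks and 8.66, 23.0 and 9.81 CPM at 8 weeks (1.42 ± 0.27, adjusted p = 0.0391). The 4-week and 6-week libraries overlapped and lay above all libraries of 2 and 8 weeks. In WT LSK it had 6.29, 4.66 and 4.75 CPM, and it was higher in Flt3 than in WT LSK at 4 weeks (2.92 ± 0.37, adjusted p = 3.15e-06). The number of calls depended on the tool and on a library. DESeq2 called 77 genes, edgeR without a filter on low counts 141, and edgeR without Flt3 4-week replicate 2 called 2. Leaving out a 4-week library ended the calls of Slc35d3 and Crip1, with an adjusted p of 0.0568 to 0.259 for Slc35d3 without Flt3 replicate 1 or 2 or 3, and of 0.0855 to 0.165 for Crip1 without Flt3 replicate 2 or 3. The 2-week libraries also held B and plasma cell genes at a summed 30018 to 96881 CPM, compared with 342 to 524 CPM in Flt3 LSK of 4, 6 and 8 weeks, and the part of these cells in the comparison of times was not tested.

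**Figure D5:**
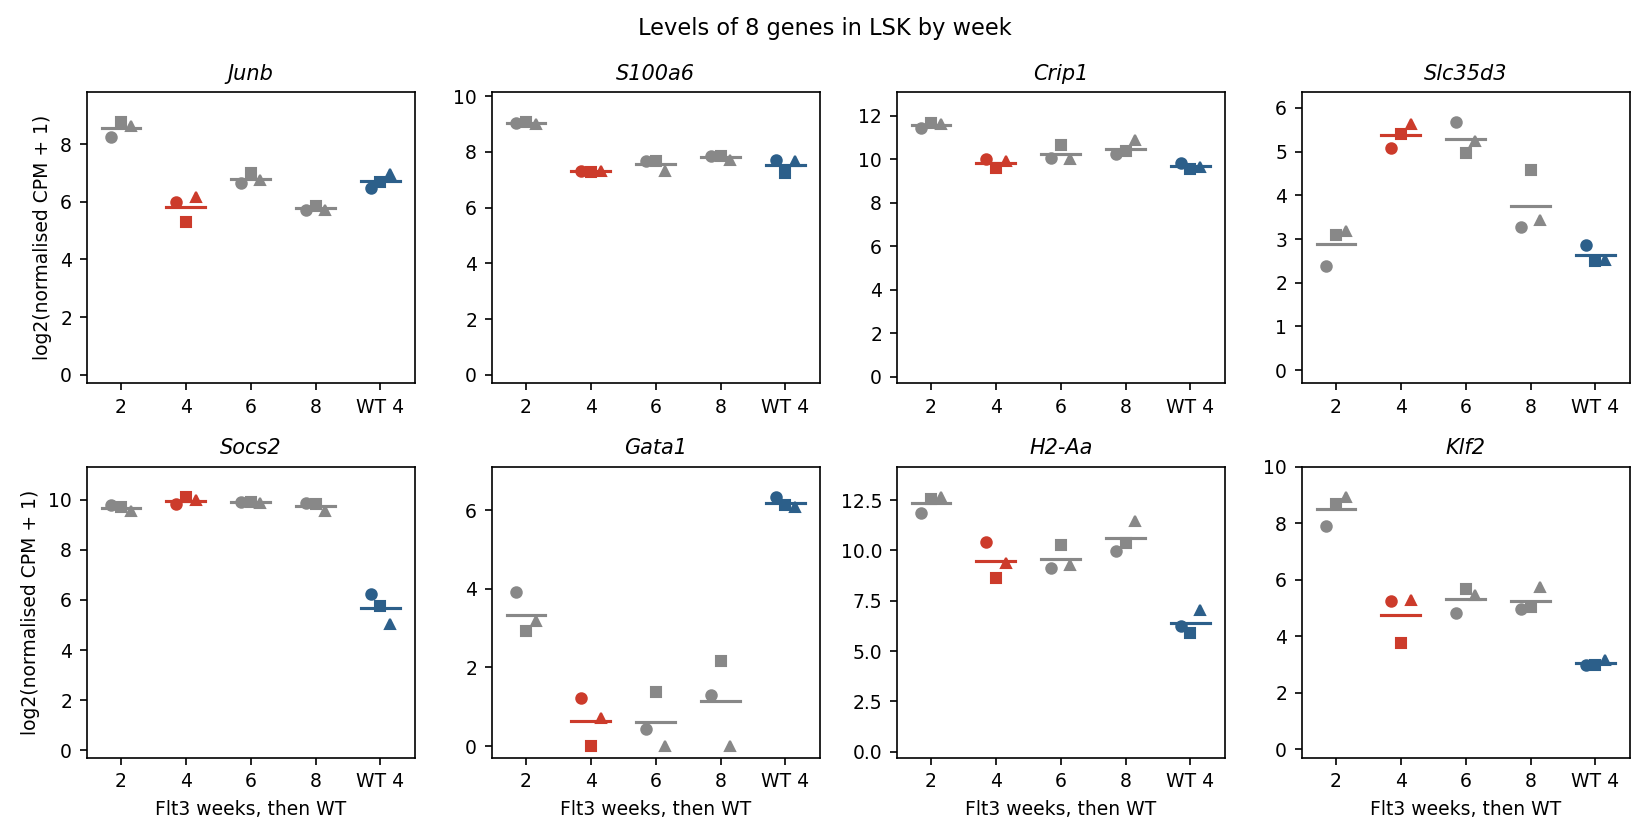
Level of 8 genes as log2(normalised CPM + 1) on the vertical axes in Flt3 LSK of 2, 4 (red), 6 and 8 weeks and in WT LSK of 4 weeks (blue, rightmost), with 3 libraries a group, bars at the means and shapes for replicates. Junb, S100a6, Crip1 and Klf2 are highest at 2 weeks, Slc35d3 at 4 and 6 weeks, and Socs2 and Gata1 keep apart from WT at each time.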

How the data were processed

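The values are counts per gene for 33924 gene symbols, deposited by the authors without normalisation, in a table of the WT and Flt3 libraries. STAR served for alignment and featureCounts for counting, on the build mm10, per the submitters' processing notes. Versions, gene annotation and strand setting are not given in the sources used here. Per the labels' protocols, paired-end and 3' single-end kits were used, without saying which library had which, so levels of different genes are not compared.

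The 15 LSK libraries of WT and Flt3 mice, in 5 groups of 3, were fitted together with R 4.3.3 and edgeR 4.0.16 (filterByExpr, TMM scaling, robust quasi-likelihood F test, Benjamini-Hochberg adjustment over the 9892 genes tested, threshold 0.05). The SE is the log2 fold change divided by the square root of F. Where a genotype had 0 counts of a gene, 3 counts over that group served as the floor. Ratios of genes with 1 to 3 counts carry an exact binomial 95% interval, and floors and intervals cover counting error only. The fit was tested on simulated data of 9607 genes. Between the genotypes it recovered 44.4% of 2-fold and 84.8% of 4-fold changes, with 7 false calls. For 4 weeks against the other Flt3 times it recovered 61.6% and 94.9%, with 6 false calls.

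The members and the 30 gene lists (467 genes, 459 found by symbol, 5 by a synonym and 3 not found) were chosen with earlier results of these data known. Genes were named by rule: Flt3, the sort markers, the 12 genes that rose most and the 12 that fell most among those called with no overlap and a mean log2 CPM of at least 4 (predicted, clone-named and sex-linked genes passed over), up to 5 members per list by p, and the 8 called genes with the most counts in 1 genotype and 0 in the other. The names of small sets of called members and a few uncalled members were added after their values were seen. Alternatives were DESeq2 1.42.0, median-ratio size factors, other low-count filters, a replicate block, the 6 libraries alone, no 2-week libraries, and leaving out each of the 6 libraries. Leaving out the shallowest library, Flt3 8-week replicate 3, was added after the data were seen. Some members of the lists are not reported here by name.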

Additional observations from a re-analysis of the deposited data

Results flagged for a closer look

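The change between 4 weeks and the mean of 2, 6 and 8 weeks in Flt3 LSK passed the test in 4 genes, which are singled out because the times differ by a test of the difference itself. The log2 difference of 4 weeks minus the other times was -1.15 for Junb, -0.94 for Crip1, -0.84 for S100a6 and 1.42 for Slc35d3. In Junb, Crip1 and S100a6 the lowest 2-week library, with 306, 2760.2 and 517 CPM, was above every 4-week library. Junb at 8 weeks, with 52.0 to 57.5 CPM, lay within its 4-week range of 38.7 to 71.2 CPM. The lowest 6-week library of Crip1, with 1030.4 CPM, lay below its highest 4-week library, with 1034 CPM. The 4-week libraries of S100a6 reached 159.2 CPM, and its lowest 6-week library had 159.9 CPM. The 2-week libraries also held the B and plasma cell genes described above, and the part of these cells was not tested. Slc35d3 alone was higher at 4 weeks than at the mean of the other times, and its 6-week libraries overlapped the 4-week ones.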

How the results depend on the processing

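The number of genes that differed between the genotypes, 1003, lay between 715 and 1302 under 14 alternatives, within 1.5 times of the main count. Leaving out each of the 6 libraries in turn gave 715 to 862 genes. For 4 weeks against the other Flt3 times the 4 calls became 77 with DESeq2 and 141 without a filter on low counts, and 2 to 4 when a library of the 6 was left out. A fit of the 6 libraries alone, or without the 2-week libraries, does not hold all groups of this comparison. Same-numbered replicates did not deviate together (correlations of -0.142, -0.105 and -0.119 for replicates 1, 2 and 3), so the numbers were not taken as pairs, and a block on the replicate number gave 881 genes for the genotype and 6 for the times, of which 0 were higher and 6 lower at 4 weeks. Slc35d3 had an adjusted p of 0.0635 in that fit. Over all alternatives, the number of members that rose was 2 to 7 for class II, 3 to 7 for dendritic, 1 to 5 for monocyte, 1 to 4 for Bcl2 family, 1 to 5 for interferon-stimulated and 3 to 6 for ribosome biogenesis genes. The number that fell was 13 for erythroid, 9 to 11 for megakaryocyte, 14 to 17 for stem cell, 4 to 12 for macrophage, 2 to 5 for MAPK feedback, 3 to 5 for early response and 1 to 3 for lymphoid priming genes. Among the named genes, the sign turned for 1 that was not called, Cd34. Its log2 fold change lay between -0.2253 and 0.0033 over the 14 alternatives, with 0.0033 in the fit without WT replicate 2. The causes were not tested. With 3 libraries a group and total counts down to 306571, a gene that was not called may still differ.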

Other observations

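Genes without an assigned name were among the largest rises. Gm17004, a predicted gene, had 151, 81.0 and 182 CPM in Flt3 LSK, against 0.331, 1.17 and 0.730 CPM in WT LSK (7.68 ± 0.46, adjusted p = 4.39e-11). Gm8420, another predicted gene, had 78.3, 53.1 and 68.0 CPM in Flt3 LSK, against 0, 0 and 0.365 CPM in WT LSK, with 1 count in the WT libraries and 393 in the Flt3 libraries. 8430408G22Rik had 30.3, 28.8 and 31.6 CPM in Flt3 LSK, against 0.992, 2.33 and 1.83 CPM in WT LSK (4.24 ± 0.40, adjusted p = 1.99e-08). All Flt3 libraries lay above all WT libraries in these genes, which had been passed over among the largest changes. Gm8420 had 54.8, 69.7 and 88.7 CPM at 2 weeks, 63.3, 68.7 and 68.8 CPM at 6 weeks and 68.6, 78.3 and 52.3 CPM at 8 weeks in Flt3 LSK.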
